A study of Homo sapiens with 21 samples.

Results

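The genes described are the human RhoGAP and RhoGEF genes whose symbol consists of ARHGAP or ARHGEF and a number, taken by that name rule alone from the annotation of the HG-U133 Plus 2.0 array. A gene was kept where at least 1 probe set names it and no other gene, and was read from the brightest such probe set. The rule found 54 of 19775 genes on the array, 31 ARHGAP and 23 ARHGEF genes. A gene was tested where its probe set lay above the array median on at least 3 of the 21 arrays, which 50 of the 54 did (92.6%, against 65.1% of all genes). The 50 comprise 29 ARHGAP and 21 ARHGEF genes, and ARHGAP28, ARHGAP36, ARHGEF33 and ARHGEF38 were too dim to test. ARHGAP8, ARHGAP11B, ARHGAP15 and ARHGEF34P are named only on probe sets shared with another symbol and were not measured.

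The cells are HEY, an established human ovarian carcinoma cell line grown in RPMI-1640 medium with fetal bovine serum. Exponentially growing cells were transfected with Lipofectamine 2000, a cationic lipid reagent, carrying either mir-429 or a negative control microRNA (Ambion). The 7 groups were untransfected cells at 0 h, control microRNA at 24 h, 48 h and 144 h, and mir-429 at 24 h, 48 h and 144 h, each with 3 arrays labelled as biological replicates. All groups are 1 cell line with no mir-429 knockout or inhibitor, the untransfected cells saw no lipid reagent, and the dose of microRNA is not given in the sources used here. RNA was amplified and biotin labelled with the Applause 3'-Amp System, which copies transcripts from the 3' end. Nothing in the labels says how the replicate cultures were separated, so every p-value measures the spread between these arrays.

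The GTPases RhoA, Rac1 and Cdc42 are molecular switches that organise actin, cell contraction and protrusion. Guanine nucleotide exchange factors (RhoGEFs) load them with GTP and switch them on, and GTPase activating proteins (RhoGAPs) speed GTP hydrolysis and switch them off. In carcinoma cells both families are known for their part in cell junctions, cell division and the choice between epithelial and mesenchymal movement, the setting in which the mir-200 family of microRNAs is also known.

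The transfected microRNA belongs to the mir-200 family, whose members differ in the seed, bases 2 to 8, the stretch that pairs with target messenger RNAs. The mature sequences are shown because the seed defines what was added to the cells. They come from RefSeq (GRCh38.p14), run 5′ to 3′ and carry the seed in capitals.
hsa-miR-429: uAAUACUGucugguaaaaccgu
hsa-miR-200b-3p: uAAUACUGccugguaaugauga
hsa-miR-200c-3p: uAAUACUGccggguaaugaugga
hsa-miR-200a-3p: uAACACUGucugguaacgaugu
hsa-miR-141-3p: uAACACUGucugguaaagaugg
The first of these is encoded at chr1:1169055-1169076 on the plus strand and shares its seed AAUACUG with hsa-miR-200b-3p and hsa-miR-200c-3p. The other seed, AACACUG, is that of hsa-miR-200a-3p and hsa-miR-141-3p. No search for seed matches in these genes was made.

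Values are log2 expression, so a difference of 1 is a doubling, and array medians lay between 3.95 and 4.29. The 3' bias of the RNA, read as the mean log2 difference between the 3' and 5' control probe sets of GAPDH and ACTB, moved with time: it was 3.15 ± 0.53 (SD, n = 3) in untransfected cells, 4.21 ± 0.21 with control and 2.87 ± 0.36 with mir-429 at 24 h, 7.83 ± 0.62 and 8.55 ± 0.15 at 48 h, and 3.90 ± 0.47 and 3.35 ± 0.13 at 144 h. Its part in the results below was looked at only by adding it to the fit as a covariate. The slope of that covariate rests on the spread within groups, while the 48 h groups lay far above all others. Bias and group therefore cannot be told apart there, and the cause of calls lost in that fit was not tested. Of the ovarian and epithelial carcinoma markers, PAX8, WT1, KRT8 and KRT18 lay above the median on every array, while MUC16, EPCAM and CDH1 did so on none. The mesenchymal markers VIM, FN1 and CDH2 lay above it on all arrays, as did CDH5 of the 4 endothelial and COL1A1 of the 4 fibroblast markers. The endothelial markers PECAM1, VWF and TEK did so on 3, 1 and 2 of the 21 arrays, and the fibroblast markers PDGFRB, DCN and COL3A1 on 20, 1 and 0. Of the 4 leukocyte markers with a probe set, CD14 did so on 1 array and PTPRC, CD3E and LYZ on none.

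The median probe set level was 7.99 over the 29 tested ARHGAP genes, 6.98 over the 21 tested ARHGEF genes and 7.91 over all 12879 genes tested. Levels of different probe sets do not rank the abundance of genes. Above the array median on all 21 arrays were 25 ARHGAP and 15 ARHGEF genes.

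At 24 h a group of RhoGAPs led by ARHGAP22, ARHGAP19 and ARHGAP31 was lower with mir-429 than with control, by 2.51-fold, 2.17-fold and 2.0-fold. The exchange factors ARHGEF5 and ARHGEF7 were higher, by 2.23-fold and 2.20-fold, the latter in its brightest probe set only. For ARHGEF7 the mir-429 arrays read close to untransfected cells, and its call was lost with the 3' bias as a covariate. ARHGAP31 was itself called higher in control than in untransfected cells. Of the 50 genes, 9 were higher and 10 lower with mir-429 than with control (limma, Benjamini-Hochberg adjusted p under 0.05 over all genes tested), or 38%, where 26.6% of all genes were called. With the 3' bias, which differed between the 24 h groups, as a covariate the count was 8 (4.77% of all genes). Of the 29 ARHGAP genes 8 were lower and 5 higher, and of the 21 ARHGEF genes 2 were lower and 4 higher, the latter 28.6% in all and near the share of all genes. The share of all genes called was 11.6% lower and 15% higher. The median change was -0.04 over the ARHGAP genes, -0.21 over the ARHGEF genes and -0.02 over all genes, so the uncalled ARHGEF genes lay mainly below 0. The median size of change was 0.38 over the 50 genes and 0.24 over all genes. The control and mir-429 arrays did not overlap at 24 h for 26 of the 50 genes, where 40.4% of all genes were separated, at 48 h for 20 (29% of all genes) and at 144 h for 25 (33.9% of all genes). In RNA from whole cultures, fewer cells of a kind and less RNA per cell cannot be told apart.

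At 48 h ARHGAP19, ARHGAP31 and the exchange factor ARHGEF6 were lower, and ARHGEF5 and ARHGEF39 higher, each by more than 1 on the log2 scale. ARHGEF39 was itself called lower in control than in untransfected cells at 48 h. In all, 7 genes were higher and 10 lower with mir-429 than with control, or 34% of the 50 against 20.6% of all genes. They comprised 2 higher and 6 lower of 29 ARHGAP genes, and 5 higher and 4 lower of 21 ARHGEF genes, where 9.32% of all genes were called higher and 11.3% lower. The median change was -0.13 over the ARHGAP genes, -0.07 over the ARHGEF genes and -0.01 over all genes. The difference between the classes was not tested at any time. The count at 48 h was 11 with all probe sets of a gene averaged and 7 in a fit of the 48 h arrays alone. Of the 12 calls with the smallest p at 48 h, up to 6 for each class, that fit lost ARHGAP22, ARHGAP24, ARHGAP29, ARHGAP30, ARHGEF10 and ARHGEF39. Further calls outside these 12 were lost as well.

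At 144 h ARHGAP29 and ARHGEF28 were higher and ARHGAP31 and ARHGAP39 lower, 4 of 50 (8%) where 5.85% of all genes were called, 1.48% higher and 4.37% lower. The median change was -0.15 over the ARHGAP genes, -0.07 over the ARHGEF genes and -0.04 over all genes. Which of these were called depended on single arrays: the count was 1 without any one of control replicates 1, 2 and 3 at 144 h, 2 without mir-429 replicate 2 and 0 without mir-429 replicate 1 (11 with an unadjusted p under 0.05). It was 14 with array weights, 9 without the 48 h arrays, 7 in a fit of the 144 h arrays alone and 2 with probe sets averaged. The split also moved with scaling, to 4 higher and 0 lower with array medians subtracted, which moved the median of all genes from -0.04 to 0.07, and to 4 higher and 1 lower with cyclic loess or quantile scaling.

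**Figure D1:**
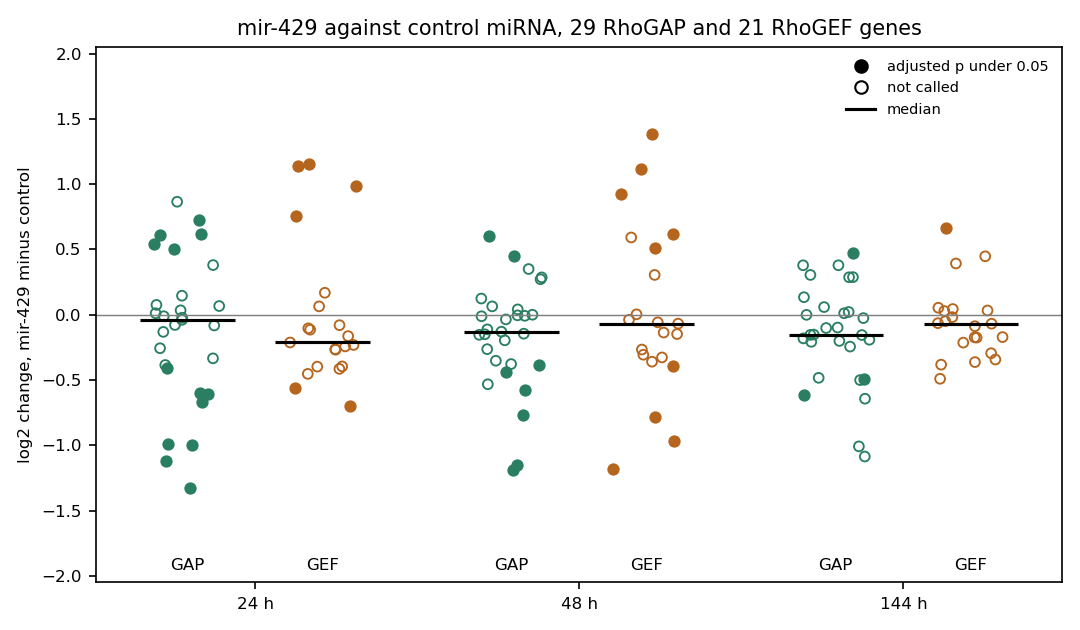
Change in log2 expression of mir-429 over control at 24 h, 48 h and 144 h (y axis), with 1 point for each of the 29 ARHGAP and 21 ARHGEF genes, filled where the limma adjusted p was under 0.05, and a bar at each class median. The filled points spread from -1.33 to 1.16 at 24 h and from -1.19 to 1.38 at 48 h, and only 4 are filled at 144 h.

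The calls at 24 h and 48 h overlapped. Called the same way at 24 h and 48 h were 11 of 50 genes (22%, against 9.49% of all genes), which is 57.9% of the 24 h calls and 64.7% of the 48 h calls. Lower at both were ARHGAP19, ARHGAP22, ARHGAP24, ARHGAP31, ARHGAP35, ARHGEF10 and ARHGEF40. Higher at both were ARHGAP29, ARHGEF5, ARHGEF26 and ARHGEF39. None of the 50 was called in opposite directions at 24 h and 48 h, which is near the share of all genes (40 of 12879). ARHGAP29 was called higher and ARHGAP31 lower at all 3 times, where 48 and 76 of all 12879 genes were. Called at any time were 27 of 50 (54%, against 39.9% of all genes).

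ARHGAP22, ARHGAP24 and ARHGAP25 form the FilGAP family, which acts mainly on Rac, the GTPase of membrane protrusion. All 3 were called lower at 24 h, where 11.6% of all genes were. ARHGAP22, a Rac GAP, read 9.27, 9.11 and 9.38 with control and 7.96, 7.91 and 7.91 with mir-429 at 24 h, in groups that lay far apart. The change was -1.33 ± 0.15 (SE, limma, adjusted p = 5.14e-06), or 2.51-fold lower. Its difference had shrunk to -0.58 ± 0.15 at 48 h (limma adjusted p = 0.0089), from 8.38, 8.30 and 8.90 to 8.0, 8.09 and 7.77, where the control arrays were themselves lower than at 24 h. At 144 h the values were 9.57, 9.48 and 9.19 against 9.18, 9.11 and 9.37, which overlap, and the change was -0.19 ± 0.15.

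ARHGAP24, the filamin-binding FilGAP itself, read 8.53, 8.59 and 8.43 with control and 7.97, 7.85 and 7.95 with mir-429 at 24 h. It fell by 0.60 ± 0.10 there (limma adjusted p = 0.000215) and by 0.44 ± 0.10 at 48 h (limma adjusted p = 0.00299), with no overlap between the groups at either time. ARHGAP25, known mainly from blood cells, was dimmer and noisier, at 6.31, 5.87 and 6.70 with control and 5.48, 5.02 and 5.41 with mir-429 at 24 h. It changed by -0.99 ± 0.27 (limma adjusted p = 0.0115), and at 48 h by -0.01, where its control arrays read 4.67, 4.56 and 5.25. The leukocyte marker PTPRC lay between 1.63 and 3.27 on all arrays.

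ARHGAP19, a RhoA GAP with a described part in cytokinesis, had the smallest p of the 50 genes for a shift of the effect between 48 h and 144 h. Untransfected cells read 8.80, 8.90 and 8.97, and the control arrays stayed near that level, at 8.52, 8.90 and 8.55 at 24 h, 8.77, 8.55 and 9.02 at 48 h, and 9.0, 8.94 and 8.95 at 144 h. With mir-429 it read 7.56, 7.46 and 7.59 at 24 h, 7.59, 7.61 and 7.68 at 48 h, and 9.18, 9.40 and 9.44 at 144 h. The mir-429 arrays thus lay below every control array at 24 h and 48 h, and above every one at 144 h. The change was -1.12 ± 0.12 at 24 h (limma adjusted p = 3.64e-06), -1.15 ± 0.12 at 48 h (limma adjusted p = 1.59e-06) and 0.38 ± 0.12 at 144 h, which did not pass (limma adjusted p = 0.072). The difference between the 144 h and 48 h effects, 1.53 ± 0.17, did pass (limma adjusted p = 1.52e-05). Its second probe set above the median gave -1.05 and -1.12 at 24 h and 48 h.

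ARHGAP31 (CdGAP), a GAP for Cdc42 and Rac1, was the gene lowered at every time. It read 6.41, 6.23 and 6.24 with control and 5.32, 5.36 and 5.21 with mir-429 at 24 h, then 5.94, 6.0 and 5.94 against 4.55, 4.84 and 4.92 at 48 h, and 5.51, 5.36 and 5.44 against 4.63, 4.96 and 5.24 at 144 h. No pair of groups overlapped, though at 144 h the nearest arrays were close. The changes were -1.0 ± 0.13, -1.19 ± 0.13 and -0.49 ± 0.13 (limma adjusted p = 2.72e-05, 2.8e-06 and 0.03). The call at 144 h was lost under each other scaling, with changes of -0.37 to -0.38. The effect at 144 h differed from that at 48 h by 0.70 ± 0.18 (limma adjusted p = 0.0206). Averaged over the 3 times it changed by -0.89 ± 0.07, the smallest p of the 50 genes in that comparison (limma adjusted p = 7.31e-08).

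ARHGAP35 and ARHGAP5 encode the paralogous p190 RhoGAPs, which act on RhoA, and moved in opposite directions at 24 h. ARHGAP35 read 10.06, 10.01 and 10.17 with control and 9.54, 9.45 and 9.43 with mir-429, a change of -0.61 ± 0.11 (limma adjusted p = 0.000536). ARHGAP5 read 7.26, 8.04 and 7.09 against 8.40, 8.0 and 7.82, a change of 0.61 ± 0.21 (limma adjusted p = 0.0379) between groups that overlap. At 48 h ARHGAP35 was again lower, by -0.38 ± 0.11 (limma adjusted p = 0.0174), and ARHGAP5 changed by 0.27. The difference between the paralogs was not tested.

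ARHGAP29, a RhoA GAP known from endothelial cells and from orofacial development, was the RhoGAP called higher than control at every time. It read 9.76, 9.35 and 9.33 with control and 10.24, 10.19 and 10.19 with mir-429 at 24 h, 10.66, 10.52 and 10.61 against 11.11, 11.01 and 11.04 at 48 h, and 10.40, 10.34 and 10.22 against 10.87, 10.77 and 10.74 at 144 h. No mir-429 array overlapped its controls. The changes were 0.72 ± 0.10, 0.45 ± 0.10 and 0.47 ± 0.10 (limma adjusted p = 7.39e-05, 0.00426 and 0.0104). Untransfected cells read 10.73, 10.79 and 10.91, so at 24 h the mir-429 arrays lay between untransfected cells and control. The mir-429 arrays lay above untransfected cells at 48 h and within their range at 144 h. These calls were lost when all 4 of its probe sets were averaged, with changes of 0.036, 0.24 and 0.25, and the second brightest set changed by -0.36, -0.04 and 0.35.

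Other RhoGAPs moved at 1 time. ARHGAP11A, ARHGAP12 and ARHGAP42 were higher at 24 h by 0.51 to 0.62, and ARHGAP10 and ARHGAP33 lower by -0.67 and -0.41. ARHGAP10, ARHGAP12 and ARHGAP42 belong to a chosen list of 11 tested BAR and SH3 domain GAPs. The list leaves out ARHGAP29 and ARHGAP45 and need not hold every GAP with such a domain. Of the 11, 2 were higher, 2 lower and 7 not called at 24 h. Of all genes, 15% were called higher and 11.6% lower at that time. At 48 h and 144 h limma called none of the 11, where 20.6% and 5.85% of all genes were called. Of the 11, 2 and 3 had an unadjusted p under 0.05 there. At 48 h ARHGAP45 was higher by 0.60 and ARHGAP30, a GAP for RhoA and Rac1, was lower. ARHGAP30 read 6.73, 6.21 and 6.74 with control and 5.92, 6.02 and 5.44 with mir-429, a change of -0.77 ± 0.19 (limma adjusted p = 0.00731) between groups that do not overlap. At 144 h ARHGAP39, known as a Rac and Cdc42 GAP, read 7.35, 7.48 and 7.13 with control and 6.63, 6.50 and 6.98 with mir-429, a change of -0.62 ± 0.15 (limma adjusted p = 0.0198).

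**Figure D2:**
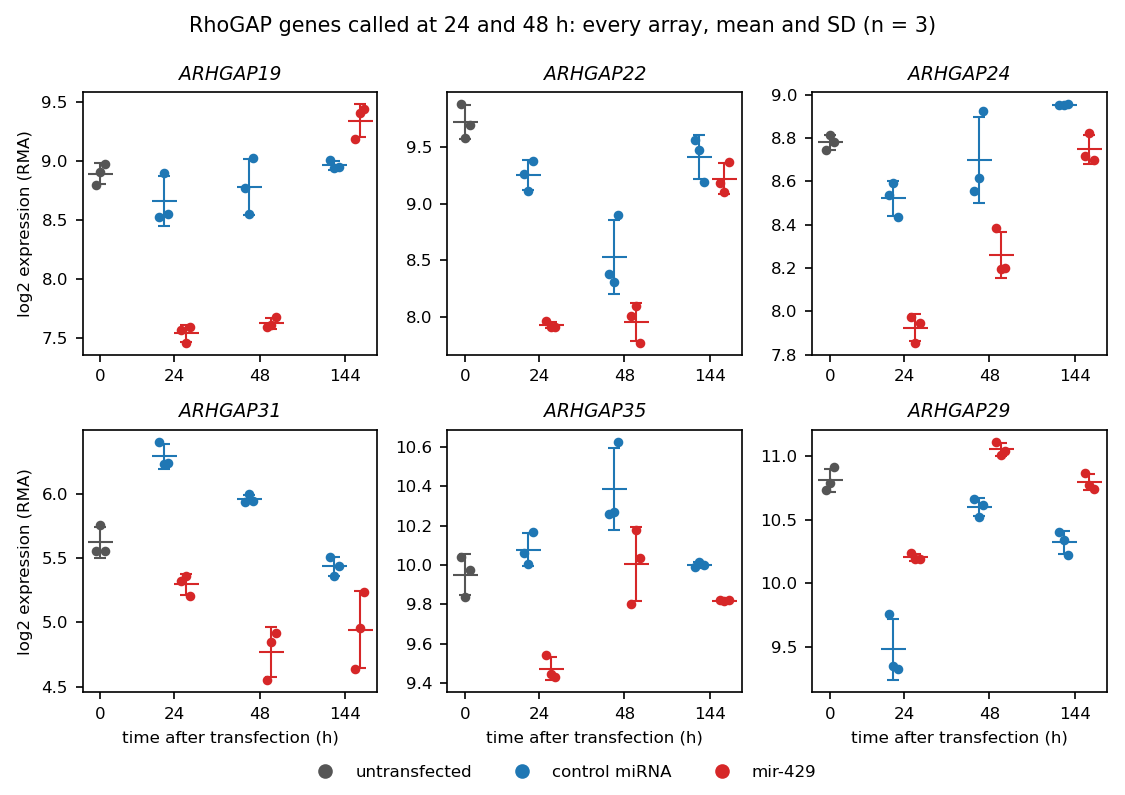
Log2 expression of 6 RhoGAP genes (y axis) against time after transfection in hours (x axis, not to scale), with each array as a point and the mean and SD (n = 3) as lines, for untransfected, control and mir-429 groups. ARHGAP19 with mir-429 sits between 7.46 and 7.68 at 24 h and 48 h and between 9.18 and 9.44 at 144 h, while its control arrays stay between 8.52 and 9.02.

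ARHGEF5 (TIM), a Src-activated RhoGEF of the ephexin family, had the largest called rise of the 21 tested ARHGEF genes at 24 h and at 48 h. It read 7.05, 6.93 and 7.10 with control and 8.0, 8.20 and 8.35 with mir-429 at 24 h, and 6.39, 6.31 and 6.96 against 7.94, 7.94 and 7.93 at 48 h. Both times the mir-429 arrays lay above every control and every untransfected array, which read 6.69, 6.36 and 6.23. The changes were 1.16 ± 0.15 and 1.38 ± 0.15 (limma adjusted p = 2.39e-05 and 2.31e-06), or 2.23-fold and 2.61-fold higher. At 144 h the values were 6.74, 6.82 and 6.76 against 7.15, 7.15 and 7.35, a change of 0.45 ± 0.15 (limma adjusted p = 0.0853). The fall of the effect from 48 h to 144 h, -0.93 ± 0.21, passed (limma adjusted p = 0.0075). Its second probe set changed by 0.97 and 0.84 at 24 h and 48 h.

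ARHGEF26 (SGEF), an exchange factor for RhoG, read 4.75, 5.36 and 4.16 with control and 5.98, 5.65 and 5.58 with mir-429 at 24 h, and 4.22, 4.62 and 5.01 against 5.63, 5.57 and 5.42 at 48 h. The groups did not overlap, with control the more scattered, and the changes were 0.98 ± 0.24 and 0.92 ± 0.24 (limma adjusted p = 0.00586 and 0.0106). Untransfected cells read 5.66, 5.42 and 5.42, close to the mir-429 arrays. At 144 h it changed by -0.17. ARHGEF5 and ARHGEF26 were tested with 3 further ephexin family genes. Of these 5 the count called higher was 2 at 24 h and 3 at 48 h, where 15% and 9.32% of all genes were called higher. The addition was ARHGEF16 at 0.62 ± 0.20 (limma adjusted p = 0.0388), where 1 mir-429 array read 5.54 and the others 4.65 and 4.61. With so few genes these counts show no trend of the family.

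ARHGEF39, an exchange factor linked to cell proliferation, read 7.06, 6.72 and 7.05 with control and 7.62, 7.69 and 7.78 with mir-429 at 24 h, 6.09, 5.26 and 6.43 against 6.94, 7.02 and 7.18 at 48 h, and 7.15, 7.39 and 7.36 against 6.92, 6.65 and 6.86 at 144 h. The groups lay apart at each time, with mir-429 on top at 24 h and 48 h and below at 144 h. The changes were 0.75 ± 0.20 and 1.12 ± 0.20 (limma adjusted p = 0.00923 and 0.000549), and -0.49 ± 0.20 at 144 h, which did not pass (limma adjusted p = 0.171). The effect at 144 h differed from that at 48 h by -1.61 ± 0.28 (limma adjusted p = 0.00118). All 3 of its probe sets were higher at 24 h and 48 h and lower at 144 h. At 48 h ARHGEF39 was also called lower in control than in untransfected cells, and both comparisons share the control arrays.

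ARHGEF7 (beta-PIX), a Rac and Cdc42 exchange factor of focal adhesions, read 9.32, 9.73 and 9.09 with control and 10.51, 10.56 and 10.48 with mir-429 at 24 h, in well separated groups. The change was 1.14 ± 0.18 (limma adjusted p = 0.000157), and 0.30 ± 0.18 at 48 h and -0.06 ± 0.18 at 144 h, neither called. Untransfected cells read 10.36, 10.41 and 10.47, close to the mir-429 arrays. The rise at 24 h was not seen in the other probe sets of the gene, and the mean of all 9 changed by 0.04. ARHGEF6 (alpha-PIX), its paralog, changed by -0.10 at 24 h and was lower at 48 h, at 4.86, 5.41 and 5.55 with control against 4.32, 4.05 and 3.92 with mir-429. The measured change was -1.18 ± 0.27 (limma adjusted p = 0.00435), but only 1 of its 3 mir-429 arrays there lay above the array median. With the array medians as a floor, ARHGEF6 fell by at least 1.07.

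ARHGEF10 and its paralog ARHGEF10L are RhoA and RhoB exchange factors. ARHGEF10 read 10.00, 10.31 and 10.11 with control and 9.47, 9.56 and 9.70 with mir-429 at 24 h, and 9.49, 9.55 and 9.73 against 9.26, 9.20 and 9.13 at 48 h. It was lower without overlap at both times, by -0.56 ± 0.10 and -0.39 ± 0.10 (limma adjusted p = 0.000528 and 0.00882). At 48 h its other probe sets were higher by 0.71, 0.11 and 1.20, so the direction at 48 h holds for the brightest set only. ARHGEF10L read 5.64, 5.26 and 5.87 with control and 4.93, 4.66 and 4.84 with mir-429 at 48 h, a change of -0.78 ± 0.16 (limma adjusted p = 0.00225) with no overlap.

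ARHGEF40 (Solo), an exchange factor that associates with keratin filaments, read 7.93, 7.62 and 8.06 with control and 7.27, 6.97 and 7.27 with mir-429 at 24 h, and 8.54, 8.29 and 7.96 against 7.34, 7.19 and 7.37 at 48 h. The mir-429 arrays lay below all untransfected and control arrays at both times. The changes were -0.70 ± 0.16 and -0.97 ± 0.16 (limma adjusted p = 0.0029 and 0.000218), and -0.02 at 144 h. All 6 of its probe sets were lower at 24 h and at 48 h, by -0.21 to -0.79 and -0.01 to -0.97. ARHGEF28 (p190RhoGEF), which binds focal adhesion kinase, read 8.44, 8.52 and 8.51 with control and 9.22, 9.12 and 9.12 with mir-429 at 144 h, a rise of 0.66 ± 0.16 (limma adjusted p = 0.0201) to above every other array of the study.

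**Figure D3:**
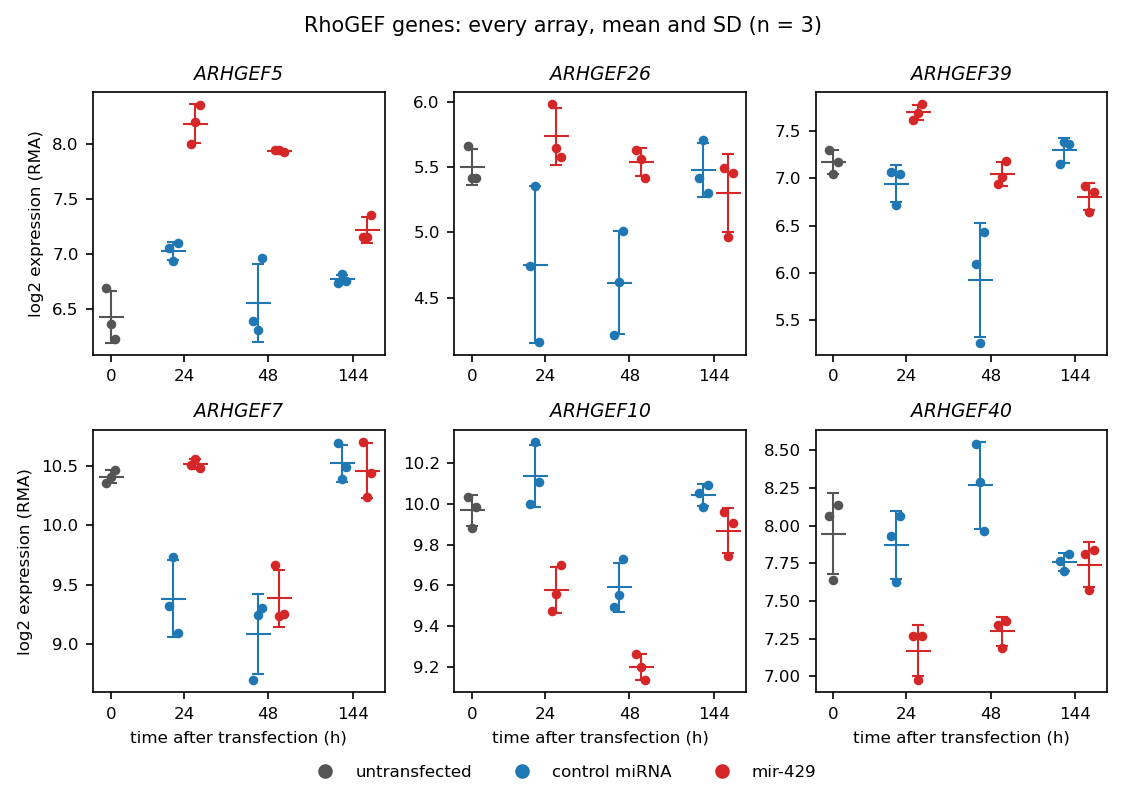
Log2 expression of 6 RhoGEF genes (y axis) against time after transfection in hours (x axis, not to scale), with each array as a point and the mean and SD (n = 3) as lines, for untransfected, control and mir-429 groups. ARHGEF5 with mir-429 sits between 7.93 and 8.35 at 24 h and 48 h, above every control array of those times, whose highest is 7.10.

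The remaining exchange factors gave few calls. ARHGEF25 was called higher at 48 h by 0.51, with overlapping groups near the array median, or by at least 0.23 with that median as a floor. The RGS domain RhoGEFs ARHGEF1, ARHGEF11 and ARHGEF12, which couple G protein receptors to RhoA, changed by -0.23 to 0.17 at 24 h and -0.33 to 0.00 at 48 h. Of these 3 limma called none at any time (0, 0 and 2 with an unadjusted p under 0.05 at 24 h, 48 h and 144 h). The shares of all genes called were 26.6%, 20.6% and 5.85%. Averaged over the times, 6 of the 50 genes were higher and 14 lower (40%, against 28% of all genes). Among them, ARHGEF5 was higher by 1.00 ± 0.09 and ARHGAP29 by 0.55 ± 0.06, and ARHGAP19, ARHGAP22, ARHGEF10, ARHGEF10L and ARHGEF40 changed by -0.63, -0.70, -0.38, -0.45 and -0.56. With probe sets averaged, ARHGEF10 turned to 0.079.

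Between the effects at 24 h and 48 h, 3 of 50 genes differed (6%, against 4.89% of all genes, 1.75% upward and 3.14% downward), all RhoGAPs: ARHGAP9 by 0.73 ± 0.20, ARHGAP22 by 0.75 ± 0.21 and ARHGAP12 by -0.86 ± 0.21. From 48 h to 144 h, 7 differed (14%, against 9.47% of all genes, 3.84% upward and 5.62% downward), of which ARHGAP19, ARHGAP30, ARHGAP31, ARHGEF28 and ARHGEF40 shifted upward and ARHGEF5 and ARHGEF39 downward. Except for ARHGEF28, each of these 7 had been called at 48 h, and the shift ran against that call. The 48 h arrays serve both tests, with opposite sign, so this direction is partly built in and is no separate result. Single arrays moved the first count: it was 0 without control 24 h replicate 3, control 48 h replicate 2 or mir-429 24 h replicate 1 (14 with an unadjusted p under 0.05 in each case), and 11 without control 24 h replicate 2. It was 5 without control 48 h replicate 3, and 1 without untransfected replicate 2 or 3, control 24 h replicate 1, control 144 h replicate 1 or 2, replicate 3 of the 24 h mir-429 group or replicate 2 of the 48 h one.

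Many of these genes also differed between control and untransfected cells, a comparison in which the control microRNA, the lipid reagent and the time in culture cannot be told apart. The same control arrays serve both comparisons. At 24 h, 7 genes were higher and 13 lower in control (40%, against 38% of all genes, 18.3% higher and 19.8% lower). At 48 h, 6 were higher and 20 lower (52%, against 54.5% of all genes, 18.4% higher and 36.1% lower). At 144 h, ARHGAP29 alone was called, lower by -0.49 ± 0.10 (limma adjusted p = 0.0403; 0.474% of all genes), and this call was lost without any 1 of the 3 untransfected arrays or of the 3 control arrays at 144 h, and without replicate 2 or 3 of the mir-429 group at 24 h, any of its 48 h arrays, or replicate 1 or 3 of its 144 h group. The count was 2 without control 24 h replicate 2 or control 48 h replicate 2. The shares at 24 h and 48 h are near those of all genes. The 48 h split was 7 higher and 14 lower with array medians subtracted. The 24 h count was 10 without control replicate 3 and 6 with the 3' bias as a covariate. Control and untransfected arrays did not overlap for 24 genes at 24 h, 29 at 48 h and 17 at 144 h, where 50.4%, 58.5% and 31.6% of all genes were separated. The median change at 48 h was -0.17 over the ARHGAP and -0.41 over the ARHGEF genes, against -0.16 over all genes, and all 10 ARHGEF calls at 48 h were lower.

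The control changes with the smallest p at 24 h were in ARHGAP29, which changed by -1.33 ± 0.10 (limma adjusted p = 1.41e-07), and in ARHGAP30 and ARHGEF7, at -1.22 ± 0.19 and -1.03 ± 0.18. ARHGAP31, ARHGAP27, ARHGEF5 and ARHGEF18 were higher by 0.67, 0.60, 0.60 and 0.48, and ARHGEF6 was lower by -0.92. At 48 h ARHGAP17 (RICH1), a Cdc42 GAP of tight junctions, read 9.86, 9.80 and 10.31 with control against 8.43, 8.17 and 8.45 in untransfected cells, 3.12-fold higher (limma adjusted p = 1.34e-06). Its mir-429 arrays at 48 h, at 9.58, 9.60 and 9.67, were also far above untransfected cells. ARHGAP33, ARHGAP22 and ARHGAP39 changed by -1.28, -1.19 and -1.07, and ARHGEF7, ARHGEF39, ARHGEF28 and ARHGEF10L by -1.33, -1.24, -0.79 and -0.75. ARHGEF7 turned to 0.0609 with probe sets averaged and to 0.061 with the 3' bias covariate. With the 3' bias as a covariate limma called no member at 48 h (6 with an unadjusted p under 0.05), and 0.59% of all genes.

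Several genes called higher with mir-429 at 24 h were lower in control than in untransfected cells. Mean levels in untransfected, control and mir-429 cells at 24 h were 10.41, 9.38 and 10.52 for ARHGEF7, 8.51, 7.94 and 8.49 for ARHGAP11A, 8.42, 7.90 and 8.40 for ARHGAP12, and 8.06, 7.46 and 8.07 for ARHGAP5. In each, the mir-429 mean was closer to the untransfected than to the control mean. ARHGEF5 showed the other order, at 6.43, 7.03 and 8.18. ARHGAP19, whose means were 8.89, 8.65 and 7.54, lay below both. With the 3' bias as a covariate, 8 members were called at 24 h (2 higher, 6 lower; 4.77% of all genes), and ARHGEF7, ARHGEF26, ARHGEF39 and ARHGEF40 were not among them.

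**Figure D4:**
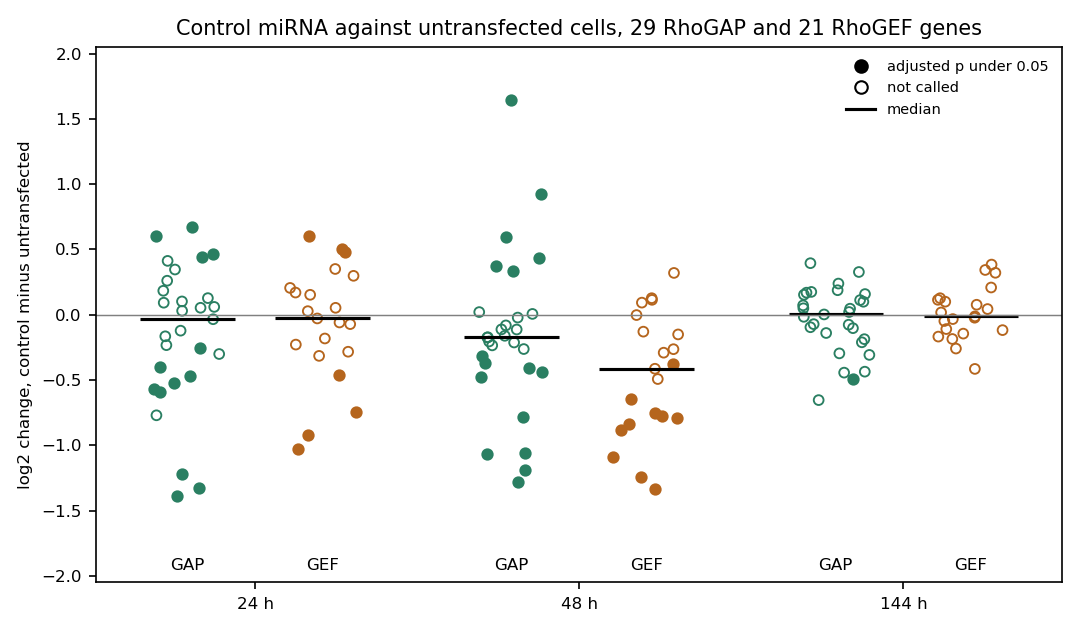
Change in log2 expression of the control microRNA over untransfected cells at 24 h, 48 h and 144 h (y axis), with 1 point for each of the 29 ARHGAP and 21 ARHGEF genes, filled where the limma adjusted p was under 0.05, and a bar at each class median. At 48 h the points reach from -1.33 to 1.64, and at 144 h a single point, ARHGAP29, is filled.

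The brightest probe set decided several of these calls. With all probe sets of a gene averaged, ARHGAP24 and ARHGEF10 were not called lower at 24 h, nor ARHGAP22, ARHGAP24, ARHGAP30 and ARHGEF10L at 48 h, while ARHGAP19, ARHGAP31, ARHGEF5, ARHGEF39 and ARHGEF40 kept their calls at both times.

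**Figure D5:**
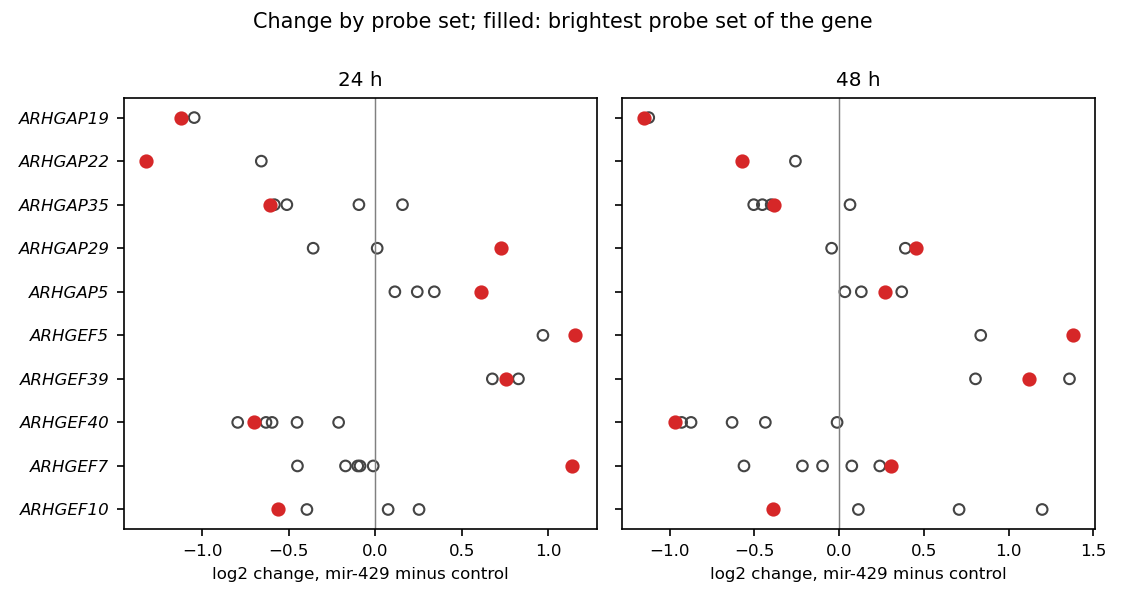
Change in log2 expression of mir-429 over control at 24 h and 48 h (x axes) for each probe set of 10 genes (rows) that lay above the array median on at least 3 arrays, with the brightest set of each gene filled. All sets of ARHGEF39 lie to the right and all of ARHGEF40 to the left of 0, while the filled ARHGEF7 set, at 1.14 at 24 h, lies apart from its others.

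The promoters of 2 exchange factors are shown because both hold the E-box CAGGTG. ZEB and SNAI, repressors of epithelial genes, bind this motif. Both exchange factors were called higher with mir-429 than with control at 24 h and 48 h, but ARHGEF26 with mir-429 read close to untransfected cells. A part of the motif in these differences was not tested. The windows run from 250 bases before to 50 after an annotated start (RefSeq, GRCh38.p14, plus strand, 5′ to 3′), with the motif on either strand, CAGGTG or CACCTG, in capitals. ARHGEF5 has 1 window, chr7:144355152-144355451, and ARHGEF26 has 2, chr3:154120753-154121052 and chr3:154121140-154121439. They were chosen after the expression values and the motif were seen.
ARHGEF5: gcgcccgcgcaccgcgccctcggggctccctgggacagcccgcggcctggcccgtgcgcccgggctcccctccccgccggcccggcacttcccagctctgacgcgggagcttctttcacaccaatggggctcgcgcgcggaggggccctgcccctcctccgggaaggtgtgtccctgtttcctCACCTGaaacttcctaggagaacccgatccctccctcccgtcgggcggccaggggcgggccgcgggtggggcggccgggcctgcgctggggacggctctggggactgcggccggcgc
ARHGEF26, window 1: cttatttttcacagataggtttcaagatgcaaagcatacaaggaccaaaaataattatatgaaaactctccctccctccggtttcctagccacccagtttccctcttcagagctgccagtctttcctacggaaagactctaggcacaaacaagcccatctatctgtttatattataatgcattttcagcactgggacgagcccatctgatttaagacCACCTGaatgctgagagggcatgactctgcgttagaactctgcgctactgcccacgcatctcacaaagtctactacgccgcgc
ARHGEF26, window 2: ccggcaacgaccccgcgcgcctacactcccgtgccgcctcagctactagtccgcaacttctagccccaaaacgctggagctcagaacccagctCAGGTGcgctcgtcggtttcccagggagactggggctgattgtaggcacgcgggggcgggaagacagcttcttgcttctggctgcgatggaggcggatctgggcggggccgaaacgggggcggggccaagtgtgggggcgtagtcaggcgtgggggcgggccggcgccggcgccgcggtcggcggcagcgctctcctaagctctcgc
The motif is common: it lies in 20.6% of 35116 such windows. Of the 86 windows of 42 of the 54 genes it lies in 20 (23.3%), in 7 of 46 ARHGAP and 13 of 40 ARHGEF windows.

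Genes of the same 2 classes under other symbols, and the DOCK exchange factors, were taken from lists by role. Of 23 tested GAPs under other names, 6 were higher and 5 lower at 24 h, 1 and 3 at 48 h, and 0 and 3 at 144 h. These are 47.8%, 17.4% and 13% of the list, against 26.6%, 20.6% and 5.85% of all genes. SYDE1, a RhoGAP, was lower at all 3 times, by -1.47, -1.13 and -0.82, and STARD13, a RhoA GAP, at 48 h and 144 h by -0.89 and -0.69. At 24 h and 48 h ARAP2 was higher by 0.84 and 0.37, and MYO9A lower by -0.69 and -0.88. FAM13B changed by 0.68 at 24 h and -0.71 at 144 h. Of 25 tested GEFs under other names, 4 were higher and 5 lower at 24 h, 4 and 3 at 48 h, and 1 and 0 at 144 h, or 36%, 28% and 4% of the list. The Cdc42 exchange factor FGD6 was higher at all 3 times, by 1.85, 2.03 and 1.21, and FGD4 at 24 h and 48 h by 1.42 each. In control against untransfected cells at 24 h, FGD4 had changed by -1.24 and FGD6 by 0.23. FARP2 was higher at 24 h by 0.95, and FARP1 was lower at 24 h and 48 h by -0.61 and -1.07.

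Of 9 tested DOCK exchange factors, which act on Rac and Cdc42 through another catalytic domain, 3 were higher at 24 h (33.3%, against 26.6% of all genes), with DOCK5, DOCK1 and DOCK9 at 0.91, 0.69 and 0.59. In control against untransfected cells these 3 had been called lower, by -1.01, -0.56 and -0.82, and both comparisons share the control arrays. At 48 h 2 were lower (22.2%, against 20.6%), with DOCK8 and DOCK11 at -1.10 and -0.69.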

How the data were processed

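RNA of the 21 samples was hybridised to HG-U133 Plus 2.0 arrays. The deposited table holds 54675 probe sets as log2 values between 0.746 and 15.0. The authors summarised the arrays with RMA, per the submitters' processing notes, with no version or settings named there. RMA fits each probe set across arrays, and values of dim probe sets are compressed towards background. GEO's platform annotation gave 1 symbol to 41097 probe sets, more than 1 to 1801 and no symbol to 11777. RefSeq renamed outdated symbols by Entrez number (99.9% matched).

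The brightest probe set over all arrays stood for each gene. Genes above the array median on at least 3 arrays were tested (12879). limma 3.58.1 in R 4.3.3 fitted the 7 groups of 3 arrays together (14 residual degrees of freedom), without a replicate block, with Benjamini-Hochberg adjustment over all genes tested and a threshold of 0.05. Tables were built with Python 3.11.15 and pandas 2.3.3. The number of arrays limits the precision. The fit was tested on simulated data.

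Named genes are, at each mir-429 time, up to 6 RhoGAPs and 6 RhoGEFs with the smallest p among those called, up to 4 of each in the averaged and control comparisons, every call between times, and up to 3 per list of other GAP and GEF genes. Some lists are not reported here. Further genes were named after their values were seen, to account for the rest. The members and lists were chosen with earlier results of these data known. Alternatives covered scaling, filter, probe set choice, arrays left out, 3' bias covariate, array weights and a replicate block.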

Additional observations from a re-analysis of the deposited data

Results flagged for a closer look

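The effect of mir-429 over control differed between successive times for 10 genes, by limma's test of the difference itself, adjusted over all genes tested. From 24 h to 48 h, ARHGAP9 shifted by 0.73 ± 0.20 on the log2 scale (SE, adjusted p = 0.0406), ARHGAP22 by 0.75 ± 0.21 (adjusted p = 0.0436) and ARHGAP12 by -0.86 ± 0.21 (adjusted p = 0.0268). None of these 3 calls held when each array was left out in turn. From 48 h to 144 h, ARHGAP19 shifted by 1.53 ± 0.17 (adjusted p = 1.52e-05), ARHGAP30 by 1.06 ± 0.27 (adjusted p = 0.0178) and ARHGAP31 by 0.70 ± 0.18 (adjusted p = 0.0206). Among the RhoGEFs, ARHGEF39 shifted by -1.61 ± 0.28 (adjusted p = 0.00118), ARHGEF5 by -0.93 ± 0.21 (adjusted p = 0.0075), ARHGEF40 by 0.95 ± 0.22 (adjusted p = 0.01) and ARHGEF28 by 0.81 ± 0.23 (adjusted p = 0.0316). Of these 7 calls, 5 held with each array left out. The 3' bias was high in both 48 h groups and lower in all others. Bias and time thus cannot be told apart in these shifts. As a covariate the bias left 3 of the calls between 48 h and 144 h and none between 24 h and 48 h.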

How the results depend on the processing

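Each count of genes called was computed again under every alternative, and the cause of a change was not tested unless stated. With the 3' bias as a covariate the counts were 8 for mir-429 at 24 h, 6 and 0 for control at 24 h and 48 h, 0 for control at 144 h, 0 between 24 h and 48 h and 3 between 48 h and 144 h. Averaging a gene's probe sets gave 11 at 48 h, 2 at 144 h, 0 for control at 144 h and 1 between 24 h and 48 h. It also reversed ARHGEF10, to 0.41 at 48 h and 0.079 over the times, and ARHGEF7 in control at 48 h, to 0.0609, which the covariate reversed to 0.061 as well. Array weights gave 14 for mir-429 and 14 for control at 144 h, and 6 between 24 h and 48 h. Fits of the compared groups alone, which have fewer arrays, gave 7 for mir-429 at 48 h, 7 at 144 h, 4 for control at 144 h and 0 between 24 h and 48 h. Without the 48 h arrays the counts were 9 for mir-429 and 0 for control at 144 h. Subtracting array medians gave 0 for control at 144 h and 1 between 24 h and 48 h, and no filter gave 0 for both. In these settings with a count of 0, limma left 3 to 15 members with an unadjusted p under 0.05.

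With each array left out in turn, the counts ran from 15 to 22, 15 to 18 and 0 to 6 for mir-429 at 24 h, 48 h and 144 h, and from 17 to 22 over the times. They ran from 10 to 20, 22 to 28 and 0 to 2 for control at 24 h, 48 h and 144 h. Between times they ran from 0 to 11 and from 5 to 10. All 12 named calls at 24 h and all 12 at 48 h held without each array, and none of the 4 at 144 h did. Under all the other settings, 5 of the 12 held at 24 h, 5 of the 12 at 48 h and 0 of the 4 at 144 h. For control at 48 h, 0 of 8 did. Named calls are those with the smallest p, which favours their keeping a call. Of the 63 named results, 24 lost their call with probe sets averaged, 22 with the covariate, 12 in fits of the compared groups alone, 6 with array medians subtracted, 6 with no filter, 2 with cyclic loess and 1 with quantile scaling. The median of all genes moved by over 0.1 with array medians subtracted, as given above, and with cyclic loess for control at 48 h, from -0.16 to -0.06. An average over 24 h and 144 h without the 48 h arrays, chosen after seeing the data, gave 17 calls.

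Same-numbered arrays did not deviate together (median r = -0.02 across genes over 63 pairs, from -0.41 to 0.31). Pairs with different numbers ranged from -0.37 to 0.34. Such values cannot show whether same-numbered cultures were set up together, and the labels do not say. With the replicate number as a block, 19, 16 and 4 members were called at 24 h, 48 h and 144 h, and 62 of the 63 named results kept their call. The exception with the block was ARHGAP22 between 24 h and 48 h, at 0.75 with a limma adjusted p of 0.053.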

Other observations

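Probe sets of 1 gene did not always move alike. The plot of probe set changes shows ARHGEF40 and ARHGEF39 as genes whose sets share a direction. ARHGAP18, a RhoA GAP of the leading edge, had 3 probe sets above the median on all 21 arrays. Its brightest changed by -0.26 with mir-429 at 24 h and by -0.32 with control at 48 h, while the next changed by -1.03 and 2.31 and the last by 0.25 and -0.29. These values have no test of their own, and which transcript each set reads was not examined.

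ARHGAP20, a RhoA GAP linked to Rap1 signalling, moved widely without passing the threshold. It read 4.74, 4.67 and 3.82 with control and 5.78, 4.60 and 5.44 with mir-429 at 24 h, and 5.46, 5.51 and 5.11 against 3.79, 4.22 and 4.81 at 144 h. The changes were 0.86 ± 0.34 and -1.09 ± 0.34 (limma adjusted p = 0.0662 and 0.0673). It was named after its values were seen.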
